A study of Mus musculus with 140 samples.

Results

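Sham-handled mice were compared at 1 clock time, ZT16 (hours after lights on), when one set had just left a stationary treadmill and the other had left it 12 h before. The samples were chosen by their labels alone: all 6 sedentary libraries of the active-phase arm and all 6 of the rest-phase arm taken at ZT16, 12 of the 140 labelled samples. All were gastrocnemius, a calf muscle of mixed fibres, of male C57B6/J mice aged 10 to 11 weeks, kept in 12 h of light and 12 h of darkness. The study as a whole compared mice that ran for 1 h with sham mice, in the early rest phase (ZT3) or the early active phase (ZT15), with tissue taken from 0 to 20 h afterwards. The 0 h group stood on the unmoving treadmill from ZT15 and was killed under isoflurane directly after it. The 12 h group stood on it from ZT3 and then spent 12 h in the home cage with food and water. Neither group ran, and every group used here had been handled. Time since the treadmill, arm, and whether the mouse was handled in light or in darkness changed together at ZT16 and cannot be told apart there. The labels do not state that each replicate is a separate animal, so p values measure the spread between libraries. In the main fit that spread was pooled over all groups of the study, exercised ones included, and not taken from these 12 alone.

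Handling and a new place are known to activate the hypothalamic-pituitary-adrenal axis, whose hormone in mice, corticosterone, acts through the glucocorticoid receptor, a transcription factor that binds paired AGAACA-like sites. In muscle its known targets include genes that restrain mTORC1 and growth signalling, genes of the FoxO programme of protein breakdown, and genes of fat use. Adrenaline, acting through cAMP and CREB, and muscle activity are known to induce a separate, fast group, the immediate early genes. Fasting is known to raise fuel genes such as Pdk4, Ucp3 and Angptl4 in muscle. Hormones and food intake were not measured here.

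Levels below are the deposited values, which are not divided by gene length, so a gene is compared between libraries and not with another gene. Differences are on the log2(value + 0.5) scale with their standard error (SE), as 0 h minus 12 h, and a gene passed at a Benjamini-Hochberg adjusted p under 0.05 over 11461 genes by limma. Reads recovered from the values ran from 7.05e6 to 1.18e7 in the 0 h libraries and from 5.52e6 to 1.82e7 in the 12 h libraries. The groups also differed in the slope of a library's deviation on log2 exon length, computed from the same values, whose cause was not tested. It was -0.16 ± 0.08 (SD, n = 6) at 0 h, with 0 libraries above 0, and 0.01 ± 0.18 at 12 h, with 3 above 0 (replicates 3, 5 and 6). Slow fibre markers had a mean log2 value of 6.12 ± 0.52 at 0 h and 5.76 ± 0.25 at 12 h, with 0 of 9 passing, and 0 of 11 fast fibre markers passed. Of the markers of other cell types 0 passed, and their summed levels overlapped. Median differences were 0.52 for slow and 0.21 for fast fibre markers, beside -0.04 for all genes. They were -0.46 for endothelial, -0.02 for macrophage and 0.39 for erythroid markers. With the length slope in the fit these 5 medians were 0.21, 0.06, -0.02, -0.24 and -0.11. Endothelial markers (13 measured) summed to 138.96 to 196 at 0 h and 159 to 341 at 12 h, macrophage markers (11) to 329 to 602 and 211 to 627, and erythroid markers (5) to 708 to 1486 and 316 to 1342. Of 7 neutrophil markers 1 was in the table, and of 9 lymphocyte markers 0. In whole muscle, fewer cells of a type and less RNA per cell cannot be told apart.

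Directly after the stationary treadmill, 81 of 11461 genes differed from the 12 h group at the same clock time, or 0.707% of genes tested. Of these 61 were higher at 0 h (0.532%) and 20 lower (0.175%), with differences from 0.44 to 3.79 among the higher genes and from -0.50 to -1.27 among the lower. Counts from gene lists below are to be read beside these shares or, with the length slope, beside those of that fit. The lists were chosen with earlier results of these data known, so their counts are descriptions and not independent tests. The rises included Ddit4, Depp1, Slc25a25 and Arrdc2, and the falls Trib2, Dusp10 and Mylip. The 6 libraries of one group lay wholly above or below the 6 of the other for 37 of the higher and 9 of the lower genes, while over all genes this held for 110 (0.96%), or 0.672% and 0.288% by direction. By DESeq2 on recovered reads 70 genes were higher and 41 lower. In a fit that also held the length slope of each library the count was 154 (1.34%), 0.977% of genes higher and 0.366% lower, with 73 of the 81 among them. Without the 3 libraries at 12 h whose slope lay above 0 it was 16, all of them higher and 15 of them among the 81. Leaving out 1 library at a time gave 30 to 163: 30 without 12 h replicate 3, 33 without 0 h replicate 1, 44 without 12 h replicate 5, 52 without 12 h replicate 6 and 163 without 12 h replicate 4, with 1.09% of genes without 12 h replicate 1.

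Of the 46 named genes that passed, 7 passed in every other fit that held them and with any 1 library left out: Ahcy, Arrdc2, Arrdc3, Cebpd, Ddit4, Depp1 and Slc25a25. With the length slope fitted 43 of the 46 passed. In a fit of the 12 libraries alone 18 passed, or 15 when the slope was added. Without the 3 libraries at 12 h with a slope above 0 the calls of 13 remained, those 7 with Apold1, Ckm, Dpp7, Errfi1, Klhl41 and Ucp3, all higher at 0 h.

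**Figure D1:**
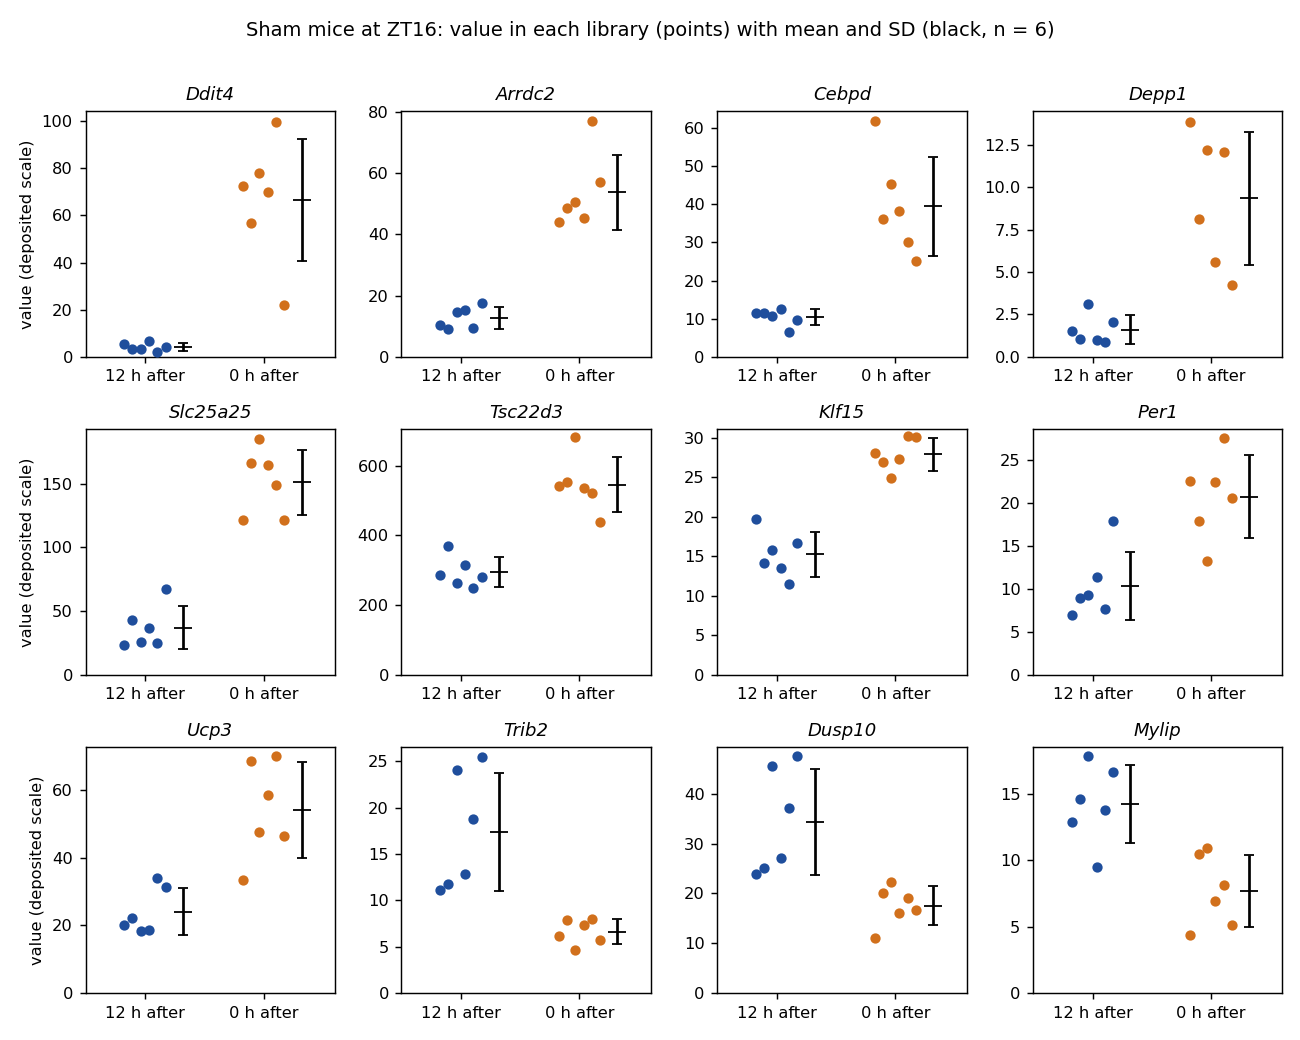
Deposited value (vertical axis, from 0) in each of the 12 sham libraries at ZT16 for 12 genes, 12 h after the stationary treadmill in blue and 0 h after it in orange, with mean and SD (n = 6) in black. For Ddit4, Arrdc2, Cebpd, Depp1, Slc25a25, Tsc22d3 and Klf15 every 0 h point lies above every 12 h point, for Trib2 and Dusp10 every one lies below, and for Per1, Ucp3 and Mylip the groups overlap.

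Genes that restrain growth signalling were among those higher at 0 h. Ddit4 (chr10:59949669-59951834, minus strand, GRCm38), whose protein REDD1 inhibits mTORC1, had values of 22.2 to 99.5 (median 71.3) at 0 h, against 1.86 to 6.83 (median 3.87) at 12 h. Every 0 h library lay above the 12 h range. The difference was 3.79 ± 0.38 (n = 6 against 6, spread pooled over all groups, adjusted p = 3.4e-13).

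The arrestin-domain gene Arrdc2 (chr8:70835129-70839720, minus strand) ran from 44.1 to 76.9 (median 49.5) at 0 h and from 9.10 to 17.45 (median 12.6) at 12 h. Its difference was 2.05 ± 0.26 (adjusted p = 6.1e-09). Its relative Arrdc3, which encodes an adaptor in the turnover of beta-adrenergic receptors, had values of 143.7 to 226 (median 168) against 67.8 to 106.2 (median 83.1). It differed by 1.000 ± 0.15 (adjusted p = 3.3e-06), and in both genes the groups did not overlap. Of 15 measured mTORC1 and growth restrainers these 3 passed and 0 fell, beside 0.532% of all genes higher. All 3 also count among the 10 passing glucocorticoid-induced genes below. The median of the list was 0.23 and that of all genes -0.04, or 0.09 and -0.02 with the length slope. Among the others, Mstn, the growth inhibitor myostatin, stood at 0.70 ± 0.26 (adjusted p = 0.19). The count was 3 with any 1 of the 12 libraries left out.

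Among 26 measured glucocorticoid-induced genes 10 were higher at 0 h and 0 lower, beside 0.532% and 0.175% of all genes. As this list was chosen with earlier results of these data known, the count is no independent test. The list's median was 0.64. At an unadjusted p under 0.05 by limma there were 16 higher and 0 lower, beside 6.89% of all genes higher and 10.7% lower. The 10 were Ddit4, Arrdc2, Arrdc3, Cebpd, Angptl4, Per1, Tsc22d3, Klf15, Errfi1 and Sgk1. With the length slope in the fit 14 were higher, and without the 3 libraries at 12 h with a slope above 0 there were 5. With 1 library left out there were 5 to 10 (5 without 0 h replicate 1, and 6 without 12 h replicate 3 or 5).

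Cebpd (chr16:15887286-15891031, plus strand), a transcription factor of the acute stress response, had values of 25.1 to 61.7 (median 37.2) at 0 h and 6.61 to 12.6 (median 11.1) at 12 h. Every 0 h library exceeded every 12 h library, and the difference was 1.83 ± 0.29 (adjusted p = 2.0e-05). Tsc22d3 encodes GILZ, a classical mediator of glucocorticoid action. Its values were 438 to 683 (median 538) against 249.7 to 371 (median 283), without overlap, a difference of 0.89 ± 0.16 (adjusted p = 3.3e-04). The Tsc22d3 call ended in the fits of the 12 libraries alone (adjusted p = 0.090, or 0.083 with the slope) and without the 3 libraries (0.14).

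Klf15, a transcription factor that links glucocorticoids to amino acid and fat use in muscle, had 24.8 to 30.2 (median 27.7) at 0 h and 11.5 to 19.7 (median 14.98) at 12 h. Its difference was 0.87 ± 0.21 (adjusted p = 0.019). Sgk1, a serum- and glucocorticoid-induced kinase, had 192 to 226 (median 207) against 116.6 to 157 (median 137.4) and differed by 0.62 ± 0.15 (adjusted p = 0.017). The groups did not overlap in either gene. Errfi1, an inhibitor of the EGF receptor, differed by 0.81 ± 0.20 (adjusted p = 0.018) with overlap. Single libraries decided these 3 calls. The adjusted p of Klf15 was 0.053 to 0.090 without 0 h replicate 1 or 12 h replicate 5. That of Sgk1 was 0.051 to 0.071 without 0 h replicate 1 or 12 h replicate 3 or 5, and that of Errfi1 0.051 to 0.068 without 0 h replicate 1 or 5 or 12 h replicate 3.

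The other 16 members did not pass. Mt1 (metallothionein 1) stood at 0.99 ± 0.31 (adjusted p = 0.11) with groups that did not overlap, 9.09 to 15.97 (median 10.7) at 0 h and 4.70 to 6.19 (median 5.78) at 12 h. Trim63, a ubiquitin ligase of muscle protein breakdown, stood at 0.64 ± 0.19 (adjusted p = 0.084) and Nfkbia, an inhibitor of NF-kB, at 0.54 ± 0.18 (adjusted p = 0.13). Several genes often used as glucocorticoid readouts had values below 0: Fkbp5, a cochaperone of the receptor, stood at -0.23 (adjusted p = 0.62), Zbtb16 at -0.23 (adjusted p = 0.55) and Klf9 at -0.33 (adjusted p = 0.38).

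**Figure D2:**
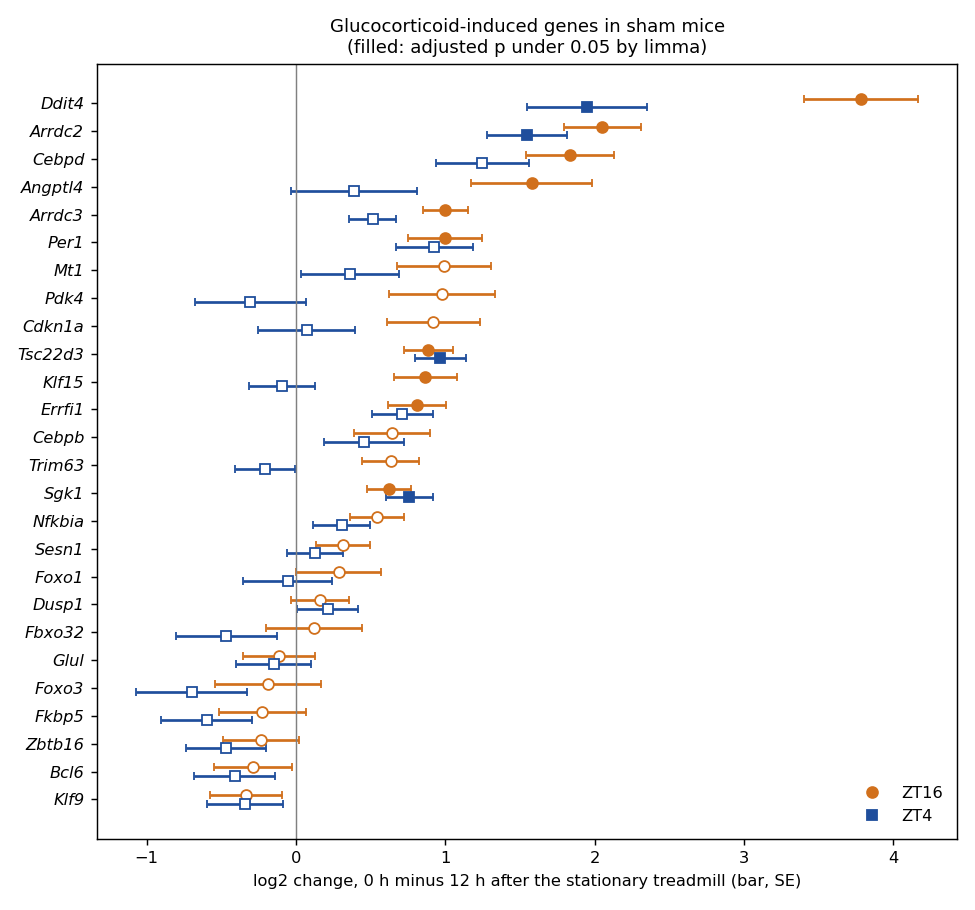
Difference between 0 h and 12 h after the stationary treadmill (horizontal axis, log2, bars SE) for the 26 measured glucocorticoid-induced genes at ZT16 (orange circles) and ZT4 (blue squares, other libraries); filled symbols passed the test. At ZT16 the 10 filled genes run from 0.62 (Sgk1) to 3.79 (Ddit4), and at ZT4 the 4 filled genes are Ddit4, Arrdc2, Tsc22d3 and Sgk1.

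Since these genes were higher together, the RefSeq promoter windows of GRCm38.p6 (250 bases before to 50 after a transcription start) were searched on both strands for letters that factors of this setting are known to bind. Of the 61 higher genes 45 matched by symbol, with 67 windows. The paired site GNACANNNTGTNC of the glucocorticoid receptor was in 4 of these 67 windows (5.97%), of 3 genes, in 0.475% of all 32851 windows and in 0.361% of the windows of tested genes. The longer form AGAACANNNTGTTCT, which contains the shorter one, was in 1 of them, a window of Sgk1, and in 3 of all windows (0.00913%). The other genes were Map3k6, with GCACAGGCTGTTC, and Fam107a, with GGACATGGTGTTC in a pair of overlapping windows; both were named after the matches were seen. The cAMP response element TGACGTCA was in 3 of the 67 windows (4.48%), in 1.79% of all windows and in 3.06% of the windows of tested genes. Its shorter form TGACG was in 29.9% of the 67 windows, in 20.8% of all windows and in 31.3% of the windows of tested genes. The shorter form was thus not more frequent in the 67 windows than in those of tested genes. The E-box CACGTG, which clock proteins bind, was in 14.9%, 7.15% and 10.2%. For the FoxO site GTAAACA the 3 shares were 2.99%, 3.65% and 2.53%, and for the heat shock site GAANNTTCNNGAA 1.49%, 0.603% and 0.537%. A match describes letters in these windows, and no match says nothing of sites elsewhere. Printed 5′ to 3′ on the gene's strand are 4 windows chosen to set the matches beside the values. Matches are in capitals, except those of the short form TGACG, which are not marked. They are Sgk1 (chr10:21993640-21993939, plus strand), with the long receptor site 189 bases before the start and an E-box; Slc25a25 (chr2:32424017-32424316, minus strand), with the cAMP element 150 bases before it; Klf15 (chr6:90462326-90462625, plus strand), with 3 E-boxes; and Ddit4 (chr10:59951721-59952020, minus strand), which has no match.
Sgk1: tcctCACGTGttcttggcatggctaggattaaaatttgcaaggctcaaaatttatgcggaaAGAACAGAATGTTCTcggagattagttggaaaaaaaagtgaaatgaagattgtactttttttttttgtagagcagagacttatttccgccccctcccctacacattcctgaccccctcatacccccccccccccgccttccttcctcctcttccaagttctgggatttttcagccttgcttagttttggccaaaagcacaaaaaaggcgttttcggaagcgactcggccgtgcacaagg
Slc25a25: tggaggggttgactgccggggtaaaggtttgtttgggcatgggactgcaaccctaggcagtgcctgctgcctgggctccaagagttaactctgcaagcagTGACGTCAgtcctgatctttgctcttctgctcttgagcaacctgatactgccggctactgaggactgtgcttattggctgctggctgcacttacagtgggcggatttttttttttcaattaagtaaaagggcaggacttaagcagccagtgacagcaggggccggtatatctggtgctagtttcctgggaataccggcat
Klf15: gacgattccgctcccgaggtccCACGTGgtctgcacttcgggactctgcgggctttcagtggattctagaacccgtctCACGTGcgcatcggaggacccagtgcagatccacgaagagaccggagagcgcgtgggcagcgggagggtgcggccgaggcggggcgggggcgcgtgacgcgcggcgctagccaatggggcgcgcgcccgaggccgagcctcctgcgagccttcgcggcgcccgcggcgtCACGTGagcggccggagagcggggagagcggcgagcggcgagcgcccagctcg
Ddit4: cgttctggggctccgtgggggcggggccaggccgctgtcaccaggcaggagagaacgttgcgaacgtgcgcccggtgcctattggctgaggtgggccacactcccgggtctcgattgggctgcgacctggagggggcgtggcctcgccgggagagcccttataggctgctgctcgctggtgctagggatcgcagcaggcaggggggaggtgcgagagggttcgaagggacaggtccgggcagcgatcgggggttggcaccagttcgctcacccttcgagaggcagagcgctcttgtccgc

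Slc25a25, an ATP-magnesium and phosphate carrier of the inner mitochondrial membrane, had values of 121.6 to 185 (median 156) at 0 h and 23.3 to 67.5 (median 31.2) at 12 h. The groups did not overlap, and the difference was 2.11 ± 0.40 (adjusted p = 8.6e-04). Ucp3, an inner-membrane protein linked to fat use, had 33.3 to 70.1 (median 53.1) against 18.2 to 34.02 (median 21.1), with overlap, and differed by 1.15 ± 0.26 (adjusted p = 0.011). Angptl4, a secreted inhibitor of lipoprotein lipase, had 3.47 to 7.11 (median 6.23) against 0.931 to 2.35 (median 1.64), without overlap, and differed by 1.58 ± 0.40 (adjusted p = 0.032).

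Ucp3 and Angptl4 were the passing members among 21 measured fasting fuel genes, a list whose median was -0.03. Over all genes 0.532% passed as higher. Pdk4, the kinase that shuts pyruvate out of oxidation, had 69.7 to 193 (median 118.98) against 32.9 to 83.9 (median 67.98), and its 0.98 ± 0.36 did not pass (adjusted p = 0.18). When the length slope was fitted Pdk4 passed, at 1.41 ± 0.27 (adjusted p = 4.0e-04), and 3 members were higher, Pdk4, Ucp3 and Ucp2. The Ucp3 call ended without 12 h replicate 3 (adjusted p = 0.053). That of Angptl4 ended without 0 h replicate 1, 2 or 5 or 12 h replicate 3, 5 or 6 (adjusted p 0.055 to 0.11) and when the length slope was fitted (adjusted p = 0.056).

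Among 24 measured genes of FoxO signalling and muscle atrophy Klf15 and Depp1 passed as higher, beside 0.532% of all genes. The list median was 0.18. With the length slope 6 were higher (median 0.09), also Trim63 (0.79 ± 0.17, adjusted p = 0.0016), Cdkn1a (1.18 ± 0.28, adjusted p = 0.0072), Foxo1 and Irs2. Depp1, a FoxO target linked to autophagy, had 4.21 to 13.8 (median 10.1) at 0 h and 0.884 to 3.09 (median 1.29) at 12 h. Its difference was 2.20 ± 0.39 (adjusted p = 1.7e-04), and the 0 h libraries were all higher. Fbxo32, a well-known atrophy ligase, stood at 0.12 (adjusted p = 0.82). Gadd45g, a growth arrest and stress gene, had 30.2 to 96.3 (median 68.3) against 9.96 to 34.8 (median 16.2), with overlap. Its difference was 1.86 ± 0.36 (adjusted p = 8.6e-04), and it was the 1 of 12 measured p53 and growth arrest genes to pass. The Gadd45g call ended without the 3 libraries at 12 h with a slope above 0 (adjusted p = 0.36). With the slope fitted 2 of the 12 were higher, Gadd45g and Cdkn1a, and 1 lower, Mdm2.

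Of 29 measured immediate early genes 1 passed, beside 0.707% of all genes, and the median was 0.06. It was Klf6, a zinc finger transcription factor, with 48.4 to 61.8 (median 57.1) at 0 h and 22.8 to 45.03 (median 37.4) at 12 h, without overlap, a difference of 0.66 ± 0.15 (adjusted p = 0.013). Its adjusted p was 0.060 to 0.12 without 12 h replicate 3 or 5. The transcription factor genes Maff (0.98 ± 0.27, adjusted p = 0.055), Atf3 (1.23 ± 0.43, adjusted p = 0.16) and Nr4a3 (1.17 ± 0.56, adjusted p = 0.27) did not pass, nor did Srf at -0.71 ± 0.26 (adjusted p = 0.18). With the length slope 3 of the 29 passed as higher (median 0.27): Klf6, Maff (0.97 ± 0.27, adjusted p = 0.041) and Nr4a1, an orphan nuclear receptor (0.99 ± 0.22, adjusted p = 0.0030; 0.25 without the slope). Of 21 CREB and cAMP targets 1 passed, Per1, and with the slope 3, also Nr4a1 and Irs2.

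In the clock, Per1, the repressor gene that both glucocorticoids and cAMP are known to induce, was higher at 0 h. Its values were 13.3 to 27.6 (median 21.6) against 7.03 to 17.9 (median 9.14), a difference of 0.998 ± 0.25 (adjusted p = 0.022) with overlap. Leaving out 0 h replicate 1, 4 or 5 or 12 h replicate 1, 3 or 5 brought the adjusted p to 0.054 to 0.090. Of 21 measured clock genes 8 had a positive difference (list median -0.15). Per1 was the 1 member to pass, beside 0.707% of all genes. Its partner Per2 stood at 0.09 (adjusted p = 0.84), Csnk1e, a kinase gene of the clock, at -0.70 ± 0.28 (adjusted p = 0.21), the repressor Cry1 at -0.41 ± 0.14 (adjusted p = 0.17) and Bhlhe41 at -0.59 ± 0.25 (adjusted p = 0.23).

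Ckm, the muscle creatine kinase, had 13349 to 20780.0 (median 18153) at 0 h and 7522 to 11782 (median 9503) at 12 h. It differed by 0.88 ± 0.18 (adjusted p = 0.0024), with no overlap, and was the 1 of 10 muscle identity genes to pass (list median -0.30). Klhl41, which stabilises sarcomere proteins, differed by 0.73 ± 0.15 (adjusted p = 0.0038) and Cct4, a subunit of the chaperonin that folds actin, by 1.19 ± 0.26 (adjusted p = 0.0049). In the fit of the 12 libraries alone the calls of Ckm (adjusted p = 0.19) and Klhl41 (0.16) ended, and that of Cct4 ended without the 3 libraries at 12 h with a slope above 0 (0.65). Over all genes 0.532% passed as higher. Of 28 heat shock proteins and cochaperones Hspa8 (0.59 ± 0.15, adjusted p = 0.041) and Hsp90ab1 (0.58 ± 0.15, adjusted p = 0.042) passed, and of 19 endoplasmic reticulum chaperones Calr (0.44 ± 0.12, adjusted p = 0.042). Those calls ended without any one of 8 libraries for Hspa8 (adjusted p 0.057 to 0.10; kept without 0 h replicate 2 or 3 or 12 h replicate 1 or 4), 9 for Hsp90ab1 (0.051 to 0.098; kept without 0 h replicate 2 or 6 or 12 h replicate 1) and 10 for Calr (0.052 to 0.099; kept without 0 h replicate 2 or 4). Reads of Hspa8 and Hsp90ab1 may be shared with processed copies.

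Ahcy, which clears the methylation by-product S-adenosylhomocysteine, had 24.8 to 39.4 (median 29.4) against 13.1 to 20.05 (median 15.2) and differed by 0.87 ± 0.15 (adjusted p = 1.7e-04). Dpp7, a lysosomal peptidase, had 12.2 to 19.7 (median 14.3) against 3.78 to 9.06 (median 7.80) and differed by 0.99 ± 0.16 (adjusted p = 2.1e-05). The groups were apart in both, and the Dpp7 call ended in the fit of the 12 libraries alone (adjusted p = 0.059). The list of 18 hypoxia and angiogenesis genes had a median of -0.19. Of its members Apold1 (1.31 ± 0.35, adjusted p = 0.042), Ccn2 (1.164 ± 0.29, adjusted p = 0.020) and Ldha (0.75 ± 0.20, adjusted p = 0.048) passed as higher, beside 0.532% of all genes. With 1 library left out 0 to 3 of them passed: 0 without 0 h replicate 1 or 12 h replicate 3 or 5, and 1 without 0 h replicate 2, 4 or 6. The Ccn2 call ended without 0 h replicate 1 or 6 or 12 h replicate 3 or 5 (adjusted p 0.055 to 0.13), that of Apold1 without any one of 9 libraries (0.050 to 0.12; kept without 0 h replicate 3 or 12 h replicate 2 or 6) and that of Ldha without any one of 7 (0.056 to 0.19; kept without 0 h replicate 5 or 6 or 12 h replicate 1, 2 or 4). Ldha reads may also be shared with processed copies.

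Among the 20 genes that were lower at 0 h was Trib2, a pseudokinase gene, with 4.63 to 7.98 (median 6.76) at 0 h and 11.1 to 25.5 (median 15.8) at 12 h. Its difference was -1.27 ± 0.27 (adjusted p = 0.0038), without overlap. Dusp10, a phosphatase of the stress kinases JNK and p38, had 11.1 to 22.4 (median 17.9) against 23.8 to 47.6 (median 32.1) and differed by -0.93 ± 0.21 (adjusted p = 0.0082), also without overlap. Mylip, a ubiquitin ligase that degrades the LDL receptor, differed by -0.90 ± 0.18 (adjusted p = 0.0032). The Dusp10 call ended without 0 h replicate 1 or 12 h replicate 3 (adjusted p 0.055 to 0.064). Of the 20 genes 0 passed without the 3 libraries at 12 h with a slope above 0; Trib2 then stood at -0.82 (adjusted p = 0.75). Of the insulin and glucose handling list (21 measured, median -0.42) and the load-responsive sarcomere list (15, median -0.44) 0 passed by limma, with 6 and 1 lower at an unadjusted p under 0.05, beside 10.7% of all genes. With the length slope their medians were -0.07 and -0.13, and in the insulin list 1 gene was higher (Irs2) and 1 lower (Akt2).

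The sham groups at the other clock times, all of them also handled, show the levels on either side of ZT16. The ZT12 libraries came 20 h after the treadmill in the active arm and 8 h after it in the rest arm. Ddit4 then stood at 12.2 ± 3.37 in the active arm and 13.9 ± 4.01 in the rest arm (SD). At ZT16 the arms stood at 66.5 ± 25.8 and 4.22 ± 1.75, and at ZT20, 4 h after the treadmill in the active arm, at 4.85 ± 2.73 and 7.44 ± 4.35. The difference between the arms at ZT20 was -0.53 ± 0.38 (adjusted p = 0.82). Arrdc2 stood at 40.7 ± 8.89 in the active arm at ZT12, 53.7 ± 12.3 at ZT16 and 9.67 ± 3.62 at ZT20, while the rest arm went from 35.4 ± 6.30 to 12.7 ± 3.50 and 15.2 ± 6.30. Per1 had its highest sham mean in the active arm at ZT12, 32.01 ± 12.3, 20 h after handling.

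Over all genes the arms differed in 0 genes at ZT0 by limma (1253 at an unadjusted p under 0.05, 10.9%), 2 at ZT8 (0.0175%), 3 at ZT12 (0.0262%) and 2 at ZT20 (0.0175%). The libraries of these other clock times entered the ZT16 test only through the pooled spread. Read at ZT20, the 61 higher genes had a median difference of -0.07. Of them 24 were higher in the active arm (39.3%), while over all genes 50.8% were. At ZT12 the median was -0.15 and 20 were higher (32.8%), against 52.1% of all genes, and at ZT8 it was -0.08 with 21 higher (34.4%), against 48.4%. At ZT0 the direction was that of ZT16, with a median of 0.15 and 43 higher in the active arm (70.5%), against 46.2% of all genes. Of the 20 lower genes 1 was higher in the active arm at ZT0, 15 at ZT8, 17 at ZT12 and 15 at ZT20. The mean length slope also differed between the arms at these times. In the active against the rest arm it was -0.08 against 0.07 at ZT0 and 0.08 against 0.03 at ZT8. At ZT12 it was 0.10 against -0.04, and at ZT20 0.10 against -0.004. The active arm was thus the lower in slope at ZT0, as at ZT16, and the higher at ZT8, ZT12 and ZT20. The part of the slope in these shares was not tested. The difference between the arms at ZT16 minus the mean of those at ZT12 and ZT20, a contrast that uses the ZT16 libraries again, passed in 152 genes (1.33%), and in 36 when the length slope was fitted. It was 4.15 ± 0.47 for Ddit4, 2.27 ± 0.32 for Arrdc2, 1.23 ± 0.19 for Arrdc3, 2.28 ± 0.36 for Cebpd and -1.77 ± 0.33 for Trib2. Without the 3 libraries at 12 h with a slope above 0 it passed in 7. With 1 library left out the count ran from 39 (active arm at ZT16, replicate 1) to 1655 (rest arm at ZT16, replicate 4).

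Of the 21 fasting fuel genes 2 passed at ZT20, Ucp3 and Pdk4, with a list median of 0.16 there and -0.07 at ZT8. Ucp3 stood at 54.1 ± 14.3 in the active arm at ZT16 and at 84.8 ± 19.5 at ZT20, when the rest arm stood at 28.7 ± 8.65; the difference at ZT20 was 1.58 ± 0.26 (adjusted p = 2.6e-04). Pdk4 stood at 233 ± 67.7 in the active arm at ZT20 and at 61.7 ± 31.9 in the rest arm, a difference of 2.02 ± 0.36 (adjusted p = 6.5e-04). Over all genes, too, these were the 2 that passed at ZT20. At ZT8, 4 h after the treadmill in the rest arm, the active arm was lower in Ucp3 (-1.54 ± 0.28, adjusted p = 0.0019), with Pdk4 at -1.59 ± 0.37 (adjusted p = 0.17). Banp was the other gene to pass at ZT8, and Ciart, Lep and Slc1a5 were the 3 at ZT12; these were named after their values were seen.

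**Figure D3:**
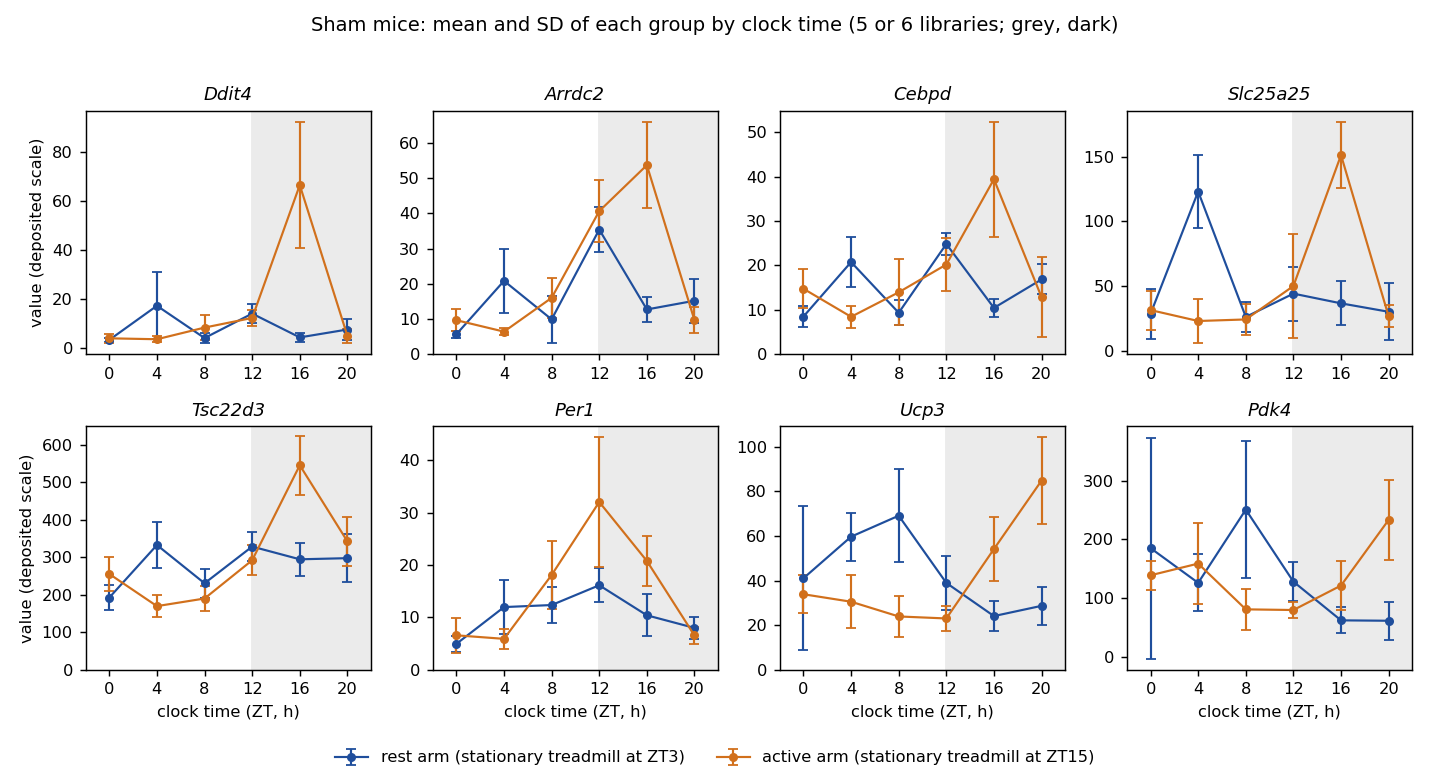
Mean and SD (5 or 6 libraries) of the deposited value in sham mice by clock time (horizontal axis, ZT in hours, grey for darkness) for 8 genes, rest arm in blue and active arm in orange. The highest means of Ddit4, Arrdc2, Cebpd, Slc25a25 and Tsc22d3 are those of the active arm at ZT16, directly after its treadmill, while Ucp3 of that arm is highest at ZT20 (84.8). Those first 5 genes were named from the ZT16 comparison, which uses the same libraries. In each of them the libraries overlap those of the sham group with the second highest mean.

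The same contrast at ZT4 was made in other libraries, with 5 rest-arm libraries directly after the treadmill in the light and 6 active-arm libraries 12 h after it. There 19 genes passed (0.166%), 12 higher at 0 h (0.105%) and 7 lower (0.0611%). The 9 genes that passed at both clock times, 11.1% of the 81 and 47.4% of the 19, had the same sign in both. Leaving out 1 library at ZT4 gave 11 to 22: 11 without 12 h replicate 6, and 12 without 12 h replicate 5 or 0 h replicate 2 or 5. Slc25a25 differed by 2.64 ± 0.42 at ZT4 (adjusted p = 8.2e-05), with 123.03 ± 28.3 at 0 h and 23.2 ± 17.1 at 12 h. Ddit4 differed by 1.95 ± 0.40 (adjusted p = 0.0056), with 17.2 ± 13.7 and 3.46 ± 1.197. Arrdc2 differed by 1.55 ± 0.27 and Tsc22d3 by 0.97 ± 0.17, both with an adjusted p of 2.5e-04.

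Sgk1 (0.76 ± 0.16), Klf6 (0.70 ± 0.16), Rhob, a small GTPase gene (0.93 ± 0.21, and 0.96 ± 0.20 at ZT16), and Tcim (1.21 ± 0.25, and 1.14 ± 0.24 at ZT16) were the other shared rises at ZT4. Kcnj2, the gene of an inward rectifier potassium channel, was the shared fall, at -0.99 ± 0.20 and, at ZT16, -0.72 ± 0.19 (adjusted p = 0.045), a call that was not refitted with libraries left out; it was named after its values were seen. Of the 61 genes higher at ZT16, 58 had a positive difference at ZT4 (95.1%), where 80.5% of all genes had the same sign at both times. When the length slope was fitted at ZT4 only, 54 of the 61 (88.5%) had a positive difference there. The share of all genes with the same sign at both times was then 44.2%. That share sets ZT4 with the slope against ZT16 without it. The slope was low in the 0 h libraries of both clock times, -0.18 ± 0.06 at ZT4, and its part in the count without the covariate was not tested. Of the 20 lower genes 19 had a negative difference at ZT4, or 13 with the covariate at ZT4 only.

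**Figure D4:**
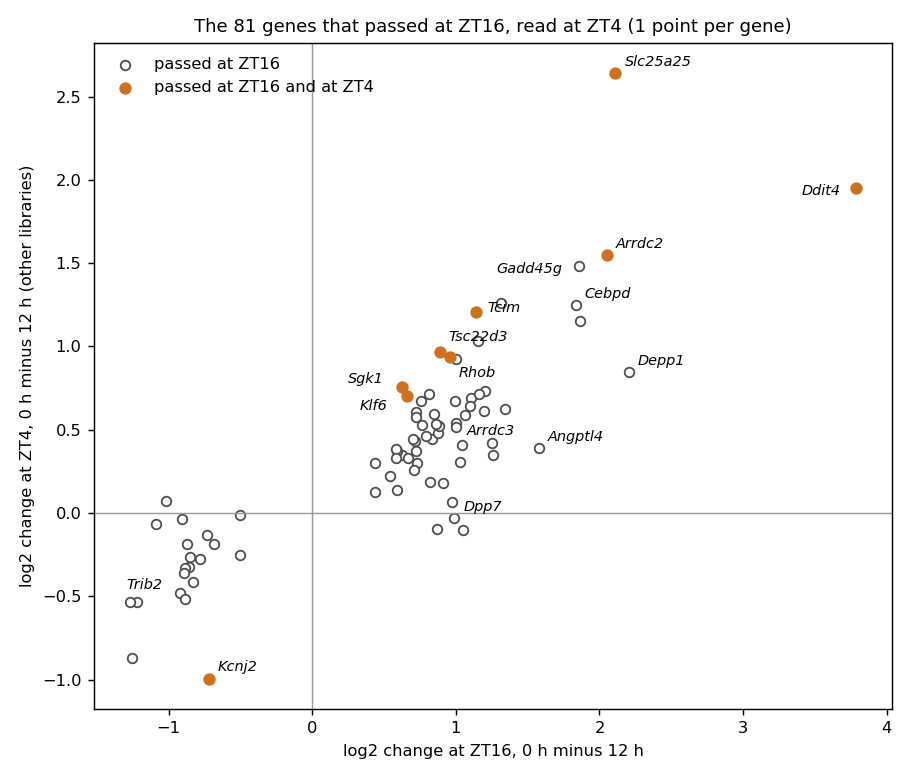
Log2 difference between 0 h and 12 h after the stationary treadmill at ZT16 (horizontal axis) and at ZT4 in other libraries (vertical axis) for the 81 genes that passed at ZT16, 1 point each. The 9 filled points passed at both, with Ddit4 farthest to the right at 3.79 and Slc25a25 at 2.64 on the vertical axis, and Dpp7 lies near 0 at ZT4 (-0.03).

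The difference between the clock times was tested itself and passed in 0 of 11461 genes by limma, with 390 at an unadjusted p under 0.05 (3.4%), 0 by edgeR and 4 by DESeq2. Ddit4 was 1.84 ± 0.55 higher in its ZT16 difference than in its ZT4 difference (adjusted p = 1.0). Dpp7 had 0.99 at ZT16 and -0.03 at ZT4 (difference 1.02 ± 0.23, adjusted p = 0.28). When the length slope was fitted Dpp7 was the 1 gene whose difference between clock times passed, at 1.07 by limma (adjusted p = 0.0010) and 1.08 by edgeR (adjusted p = 0.0034). Klf15 stood at -0.09 ± 0.22 at ZT4 (adjusted p = 0.77). In the mean over both clock times, in which the arms cancel, 1553 genes passed (13.6%), or 1.24% when the length slope was fitted. The mean difference was 2.87 ± 0.28 for Ddit4, 1.80 ± 0.19 for Arrdc2, 2.38 ± 0.29 for Slc25a25, 0.93 ± 0.12 for Tsc22d3 and 1.54 ± 0.21 for Cebpd. Without the 3 libraries at 12 h with a slope above 0 it passed in 50. With 1 library left out the count ran from 257 (active arm at ZT4, replicate 2) to 3465 (rest arm at ZT16, replicate 4).

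Running mice killed at the same moment give a scale for the sham levels; they are compared with the same 0 h sham libraries, so the contrasts are set side by side only. Ddit4 stood at 126.4 ± 37.6 after exercise and 66.5 ± 25.8 after sham in the active arm (1.001 ± 0.38, adjusted p = 0.16). Arrdc2 stood at 59.8 ± 13.8 after exercise and 53.7 ± 12.3 after sham (0.15 ± 0.26, adjusted p = 0.68). For Cebpd the levels were 40.9 ± 9.94 and 39.4 ± 12.95 (0.07 ± 0.29, adjusted p = 0.88). A p that misses the threshold does not show that exercised and sham levels were alike. Exercise against sham passed in 1.18% of genes in the active arm at 0 h, among them Mt1 (2.37 ± 0.31, adjusted p = 1.4e-08), Errfi1 (1.48 ± 0.20, adjusted p = 1.2e-08), Apold1 (2.004 ± 0.35, adjusted p = 2.6e-05) and Rhob (0.92 ± 0.20, adjusted p = 0.0018). In the rest arm at 12 h it passed in 6 (0.0524%).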

How the data were processed

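Gastrocnemius RNA was sequenced as total RNA after ribosomal depletion. The deposited values are a normalised signal per gene, made by the authors; per the submitters' processing notes reads were mapped to mm10/GRCm38 with STAR 2.5.3a, counted with featureCounts 1.5.2 and passed to edgeR 3.2.23, after trimming with Trim Galore 0.4.3. The annotation release and the strand setting of the counting are not stated in the labels, so overlapping and antisense genes are uncertain. Of 11461 genes, 11454 matched GENCODE M21.

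Groups came from the labels. In R 4.3.3, log2(value + 0.5) was fitted with limma 3.58.1 over all 137 libraries in 24 groups, which share 1 estimate of spread, and contrasts were taken with Benjamini-Hochberg adjustment over all genes. Whole reads recovered from the values (100% whole within 0.05 read, 2.19e6 to 2.76e7 reads a library) were tested with edgeR 4.0.16 and DESeq2 1.42.0 as alternatives. The calling steps were tested on simulated reads, drawn independently for each gene and library and without the length slope. That test therefore cannot speak to library differences that run across many genes. Named genes followed rules based on the size of the difference and on list membership, except where the text says otherwise. The genes, lists and tests were chosen with earlier results of these data known.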

Additional observations from a re-analysis of the deposited data

Results flagged for a closer look

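In 10 groups of 6 libraries, of 66 named genes at 0 h and at 12 h, 1 library lay far from the others; chance flags about 1 group in 20. At 0 h, replicate 6 was the lowest for Ddit4 (22.2) and Frat2 (0.443). Replicate 1 at 0 h was the lowest for Wdr6 (0.364), Zbtb22 (1.82) and Nfil3 (24.03) and the highest for Arrdc3 (226), and replicate 3 was the lowest for Klf4 (10.4). At 12 h, replicate 3 was the lowest for Dpp7 (3.78), replicate 6 the highest for Errfi1 (24.8) and replicate 5 the highest for Cdkn1a (1.86).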

How the results depend on the processing

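Counts of genes that passed are given here as a percentage of the 11461 genes. At ZT16 0.707% became 1.34% with the length slope, 1.48% with the slope and the replicate block, 0.454% with the slow fibre level, 0.183% and 0.236% in fits of the 12 libraries alone without and with the slope, 1.26% by edgeR with the slope and 0.14% without the 3 libraries at 12 h with a slope above 0. With 1 library left out it was 0.262% to 1.42%. At ZT4 0.166% became 0.288% with the replicate block, 0.279% with replicate strata, 0.384% by DESeq2 and 9.57% with array weights, or 0.096% to 0.192% with 1 library left out. The difference between clock times, 0 by limma and 0 with any 1 library left out, was 0.0349% by DESeq2, 0.00873% with the slope, 0.00873% with the slope and block and 0.00873% by edgeR with the slope. The mean over both, 13.6%, became 22.5% with the replicate block, 23.5% with strata, 20.5% and 20.7% by edgeR with TMM and RLE, 23.5% by DESeq2, 1.24% with the slope, 1.45% with slope and block, 1.05% with the slow fibre level, 3.08% without 6 libraries of low correlation, 0.436% without the 3 libraries and 1.1605% by edgeR with the slope, or 2.24% to 30.2% with 1 library left out. The contrast with ZT12 and ZT20, 1.33%, became 2.42% with the replicate block, 3.16% with strata, 2.77% by DESeq2, 0.314% with the slope, 0.428% with slope and block, 19% with array weights, 6.36% without the 6 libraries, 0.0611% without the 3 and 0.393% by edgeR with the slope, or 0.34% to 14.4% with 1 library left out. Of the glucocorticoid-induced genes 5 passed without the 3 libraries (5 to 10 with 1 left out). Of the hypoxia genes 1 passed with the slow fibre level, with array weights, in both fits of the 12 libraries alone and without the 3 libraries (0 to 3). The growth restrainers stayed at 3 in each fit. The cause of these moves was not tested.

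Of the 81 genes at ZT16, 0 changed sign in these fits. The replicate block at ZT16 gave 0.855%, or 98 genes. Same-numbered libraries correlated in their deviations from -0.02 to 0.30, and 2 of 6 correlated best with their own number, so the numbers were not taken to pair the samples. Leaving out the 3 libraries, edgeR with the slope, and the 12 libraries alone with the slope were chosen after seeing the data.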
